A study of Homo sapiens with 51 samples.

Results

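Untreated KP4 cells were compared with untreated PANC1 and PK45H cells to describe the baseline expression of KP4 among the 3 lines of the series with low OVOL2. All 3 are established human lines of pancreatic ductal adenocarcinoma (PDA), the common cancer of the exocrine pancreas, and all 3 served elsewhere in the series as hosts for OVOL2, a zinc-finger transcription factor. The comparison took the 9 untreated libraries of these lines, 3 of KP4, 3 of PANC1 and 3 of PK45H, out of 51 libraries in 17 groups of 3. The 9 libraries carried no open reading frame and no M2rtTA, the transactivator used with inducible vectors, and the labels record no genotype beyond the name of the line. RNA was collected after 6 days of culture and read by PLATE-seq, which barcodes the 3′ ends of transcripts well by well and pools the wells before amplification. The labels do not say whether untreated cells received the puromycin and doxycycline given to transduced cells. Each group is 1 cell line, and the labels do not say whether its 3 libraries came from separate cultures, so the p-values measure the spread between libraries, which may be technical.

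As background, pancreatic ductal cells are epithelial, and their keratins, E-cadherin and EpCAM fall when carcinoma cells take on a mesenchymal form driven by factors such as ZEB1. OVOL2 is known as a repressor of ZEB1 that favours the epithelial form. Hepatocyte growth factor (HGF) is usually made by stromal fibroblasts and acts on carcinoma cells through the receptor MET. S100 proteins are small calcium-binding proteins, many of them abundant in pancreatic cancer, and most of their genes lie side by side on chromosome 1.

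Library totals ran from 3367089 to 7146812 counts, with 16796 to 18430 genes detected per library and 25.8% to 29.9% of counts in mitochondrially encoded genes. Spearman correlations between libraries of a line were 0.943 to 0.960. Of 25421 gene symbols in the table, 13523 had enough counts to be tested with edgeR's quasi-likelihood test. KP4 differed from the mean of PANC1 and PK45H at an adjusted p under 0.05 for 3512 genes (26% of those tested): 1762 were higher in KP4 (13%) and 1750 lower (12.9%). Of these, 723 higher and 936 lower genes differed by at least 1 on the log2 scale, and 83 higher and 72 lower genes by at least 3. Because a mean over a pair of lines can be moved by 1 of them, a stricter count asked for KP4 above both lines or below both, taking the larger of the 2 pairwise p-values. It held 903 genes (6.68%), 429 above both (3.17%) and 474 below both (3.51%). Counts of list members above or below both lines are to be read beside the shares 3.17% and 3.51%. Taken singly, 3470 genes (25.7%) differed from PANC1 and 3604 (26.7%) from PK45H; these comparisons share the KP4 libraries. Levels are given as CPM, counts relative to library size after TMM scaling over the 9 libraries. Differences are KP4 minus the other lines on the log2 scale, each ± its standard error where one is printed. All libraries were bulk RNA, in which fewer cells expressing a gene and less RNA per cell cannot be told apart.

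Regulators of the epithelial state and junction genes were compared first. OVOL2 was too low to be tested: 4, 2 and 4 counts in the KP4 libraries, 13, 10 and 2 in PANC1 and 6, 7 and 3 in PK45H. ZEB1, the zinc-finger repressor of epithelial genes, read 12.7, 25.2 and 18.4 CPM in KP4, 13.4, 17.7 and 19.8 in PANC1 and 17.6, 31.4 and 21.4 in PK45H. The 3 lines overlapped, with a difference of -0.07 ± 0.26 and an edgeR adjusted p of 0.866 against the mean. CDH1, which encodes E-cadherin, read 3.69, 6.75 and 3.97 CPM in KP4, 8.54, 6.94 and 6.22 in PANC1 and 4.12, 4.53 and 8.32 in PK45H, again overlapping (-0.39 ± 0.31, edgeR adjusted p 0.392). EPCAM, the epithelial adhesion molecule used as a carcinoma marker, stood at 30.2, 20.1 and 33.2 CPM in KP4, 35.3, 28.9 and 41 in PANC1 and 49.9, 41.1 and 41 in PK45H and was not called against the mean (-0.48 ± 0.19, edgeR adjusted p 0.0855), though KP4 was lower than PK45H alone (-0.64, edgeR adjusted p 0.0482). ESRP1, an epithelial splicing factor, was near the limit of detection in all 3 lines (0.283 to 3.58 CPM; difference -0.32 ± 0.60, edgeR adjusted p 0.742). In the untreated libraries of HPAFII and PATU8988S, scaled together with the 9, EPCAM was at 582 ± 236 and 652 ± 25.8 CPM (SD, n = 3) against a KP4 mean of 27.6.

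The label of a PDA line was checked against defining markers. Keratin 18 was read in every library of the 3 lines, at 332 CPM or more, and keratin 8 at 110.1 or more, while keratin 19, the usual ductal marker, was low in KP4. Markers of blood cells summed to at most 11.3 CPM in any of the 9 libraries (15 genes), with CD3D at 0 counts, and markers of endothelium to at most 17.3 (11 genes). Of 17 acinar markers PTF1A and BHLHA15 were at 0 in all 9 libraries and the sum was 18.9 to 43.2 CPM. Of 17 endocrine markers INS, GCG and PPY were at 0; KP4 libraries summed to 161 to 229 CPM, those of PANC1 to 142 to 175 and those of PK45H to 138 to 150, and NEUROD1, a transcription factor of endocrine and nerve cells, was the most abundant of them in each line. The 15 fibroblast and stellate cell markers had sums of 119 to 140 CPM in KP4; those of PANC1 were 50.9 to 60.3 and those of PK45H 33.7 to 44.2. RGS5, a pericyte gene, was the most abundant of them in KP4, COL1A1 in PANC1 and ACTA2 in PK45H. Without RGS5 the sums were 50.8 to 60.5 CPM for KP4, 47.2 to 56.8 for PANC1 and 30.5 to 37.9 for PK45H, so KP4 overlapped PANC1. Of the 8 fibroblast and stellate cell markers tested, 4 were higher in KP4 (50%, beside 13% of all genes tested) and 0 lower. Their median difference was 0.44, and 1 of them stood above both lines. The part of the markers of other cell types in the other differences was not tested.

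A growth factor was among the genes that led above both lines. HGF, at chromosome 7, 81699010 to 81770047 in RefSeq's GRCh38.p14 annotation, read 88.1, 84.9 and 66.6 CPM in the 3 KP4 libraries, 2.31, 6.27 and 5.66 in PANC1 and 1.81, 3.35 and 3.44 in PK45H. Every KP4 library stood far above the 6 others. The difference was 4.44 ± 0.27 against the mean of both lines, 4.08 against PANC1 and 4.80 against PK45H (edgeR adjusted p 5.58e-06 for the mean and 0.000144 for standing above both). Its receptor MET read 41.1, 38.3 and 35.9 CPM in KP4, 22.4, 15 and 20.4 in PANC1 and 38.6, 44.1 and 40.2 in PK45H, so KP4 lay above PANC1 (1.01) and overlapped PK45H (-0.07). The MET difference from the mean, 0.47 ± 0.14, had an edgeR adjusted p of 0.0358 and missed the threshold in 10 of the alternative settings, among them the replicate block and the omission of any 1 KP4 library (adjusted p 0.0519 to 0.129). PLAT, the tissue plasminogen activator, was the third of 15 tested HGF and MET genes to be called, and its difference (-2.76 ± 0.41) came from PK45H: 0.703, 0.658 and 1.88 CPM in KP4, 0.693, 0.895 and 1.7 in PANC1 and 40.4, 59.5 and 45.8 in PK45H.

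The 30 leading genes were picked among those whose KP4 libraries did not overlap the 6 others, which was so for 9.68% of all tested genes above and 9% below; nothing is read from their number.

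**Figure D1:**
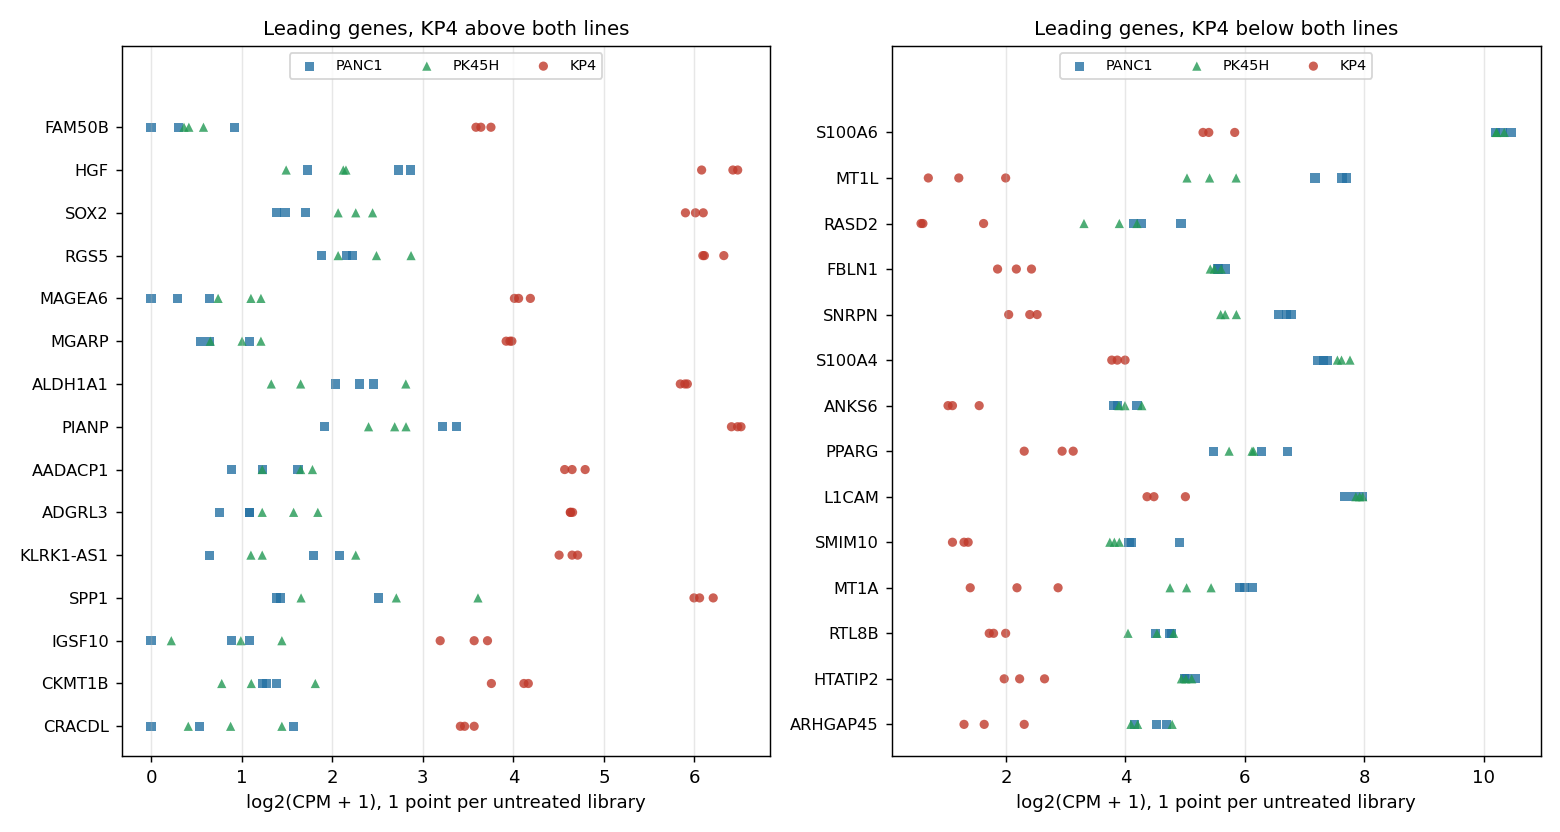
Levels of 29 of the 30 genes that led the comparison, as log2(CPM + 1) on the horizontal axis with 1 point per untreated library; KP4 circles, PANC1 squares, PK45H triangles. In each of the 29 genes, which were chosen on these libraries, the 3 KP4 points lie outside the 6 others, with HGF and SOX2 among the widest gaps on the left and S100A6 and MT1L on the right.

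Of 48 tested receptor tyrosine kinases and their ligands, 9 were higher in KP4 and 8 lower. That is 18.8% and 16.7%, against 13% and 12.9% of all genes, and the list's median difference was -0.16 (all genes -0.01). The 3 that stood above both lines were ligands. VEGFC, a lymphatic growth factor, read 38.3, 30.8 and 30.3 CPM in KP4, 6.24, 4.25 and 4.81 in PANC1 and 1.32, 0.503 and 0.574 in PK45H (4.04 ± 0.22, edgeR adjusted p 4.13e-06). IGF2, an insulin-like growth factor from an imprinted gene, read 134, 176 and 185 CPM in KP4, 32.8, 48.1 and 42.1 in PANC1 and 29.3, 18.1 and 21.1 in PK45H (2.44 ± 0.18, edgeR adjusted p 1.88e-05). PDGFC, a platelet-derived growth factor, read 31.1, 33.4 and 27.1 CPM in KP4, 5.77, 2.69 and 5.09 in PANC1 and 7.58, 7.72 and 9.47 in PK45H (2.34 ± 0.20, edgeR adjusted p 3.77e-05). None of these ligands overlapped between KP4 and the 6 other libraries. The 2 members below both lines were receptors. EGFR, the epidermal growth factor receptor, read 49.6, 42.4 and 51.4 CPM in KP4, 117, 147 and 115 in PANC1 and 159.6, 204 and 174 in PK45H (-1.64 ± 0.15, edgeR adjusted p 6.55e-05). ROR1, an orphan receptor that binds WNT5A, read 5.45, 2.8 and 6.26 CPM in KP4, 25.9, 28.2 and 21.8 in PANC1 and 11.2, 13.8 and 12.8 in PK45H (-1.88 ± 0.25).

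Of 31 tested genes that report or restrain MAP kinase signalling, 11 were higher and 3 lower, with a median of 0.29. The shares were 35.5% and 9.68%, beside 13% and 12.9% of all genes tested. DUSP6, the phosphatase that removes phosphate from ERK, read 79.5, 99.5 and 109 CPM in KP4, 16.6, 13.9 and 18.9 in PANC1 and 21.6, 19.3 and 21.8 in PK45H. KP4 was the highest line in every library (2.39 ± 0.14, edgeR adjusted p 5.58e-06). SPRY4, an inhibitor of receptor signalling (1.27 ± 0.13), and ETV4, an ETS transcription factor (1.95 ± 0.22), also stood above both lines. FOSL1, a subunit of the AP-1 transcription factor, went the other way, with 182, 202 and 230.1 CPM in KP4, 605, 476 and 459 in PANC1 and 561, 572 and 605 in PK45H (-1.40 ± 0.13, edgeR adjusted p 6.83e-05). The other lower members, DUSP4 (-1.01) and SPRY2 (-1.79), belong to the families of DUSP6 and SPRY4. DUSP4 was lower than in PK45H (-2.85) and higher than in PANC1 (0.83).

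SOX2, which was also among the genes that led above both lines, belongs to a list of neural and neural crest markers. This transcription factor of stem and neural progenitor cells (chromosome 3, 181711925 to 181714436) read 58.7, 67.4 and 63.5 CPM in KP4, 1.62, 1.79 and 2.26 in PANC1 and 3.79, 3.19 and 4.45 in PK45H. The 3 lines did not overlap, and KP4 was far higher (4.57 ± 0.15, edgeR adjusted p 4.04e-07). Of 9 tested neural and neural crest markers, 5 were higher in KP4, each of them above both lines, and 1 was lower. That is 55.6% and 11.1%, beside 13% and 12.9% of all genes tested. TUBB3, a neuronal tubulin, read 379, 365 and 432 CPM in KP4, 228, 175 and 205 in PANC1 and 112, 107 and 124 in PK45H (1.38 ± 0.12). MAP2, a microtubule protein of dendrites, read 45.4, 59.7 and 52.4 CPM in KP4, 29.1, 25.1 and 20.9 in PANC1 and 5.6, 3.19 and 3.44 in PK45H (2.39 ± 0.18). Also above both lines were NGFR, the low-affinity neurotrophin receptor (1.79 ± 0.27), and GAP43, a growth cone protein (2.76 ± 0.42). The lower member was L1CAM, one of the genes that led below both lines and a neural adhesion molecule, at 31.1, 19.6 and 21.3 CPM in KP4, 249, 225 and 203 in PANC1 and 242, 251 and 231 in PK45H (-3.26 ± 0.19, edgeR adjusted p 4.98e-06). SOX10, the defining factor of neural crest, had 0 counts in all 9 libraries. The 22 markers had sums of 565 to 633 CPM in KP4; those of PANC1 were 490 to 600 and those of PK45H 417 to 458, with TUBB3 the most abundant in KP4 and L1CAM in the other two. Among endocrine markers, 4 of 6 tested were higher in KP4 (66.7%) and none lower, with SCG2, a granin, above both lines (2.34 ± 0.26).

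Among the other genes that led above both lines, ALDH1A1, a retinaldehyde dehydrogenase, read 59.6, 56.4 and 58.5 CPM in KP4, 3.93, 4.48 and 3.11 in PANC1 and 2.14, 1.51 and 6.03 in PK45H (4.04 ± 0.30). RGS5, a regulator of G-protein signalling known from pericytes, read 68, 79.1 and 67.2 CPM in KP4, 3.46, 2.69 and 3.68 in PANC1 and 4.62, 3.19 and 6.32 in PK45H (4.19 ± 0.19). SPP1, the secreted phosphoprotein osteopontin, read 62.8, 72.9 and 65.6 CPM in KP4, 1.62, 4.7 and 1.7 in PANC1 and 11.2, 5.54 and 2.15 in PK45H (4.03 ± 0.40). PK45H libraries spread more than the others for SPP1, and still lay below every KP4 library. PIANP, a ligand of the immune receptor PILRα, was at 90.4, 88 and 83.9 CPM in KP4 and at most 9.33 in the others (3.88 ± 0.27), and ADGRL3, an adhesion G-protein-coupled receptor, at 23.7, 24.2 and 23.8 in KP4 and at most 2.58 in the others (4.09 ± 0.21). MGARP, a mitochondrial protein (4.10 ± 0.27), IGSF10 (3.68 ± 0.51), CRACDL (3.55 ± 0.52) and the pseudogene AADACP1 (3.85 ± 0.23) completed the unambiguous names. FAM50B, an imprinted gene, had 71, 67 and 55 counts in KP4, 1, 4 and 0 in PANC1 and 3, 2 and 2 in PK45H. MAGEA6, a cancer-testis antigen, had 98, 92 and 75 counts in KP4, 0, 1 and 2 in PANC1 and 8, 4 and 8 in PK45H. Reads of MAGEA6 and of CKMT1B (3.40 ± 0.30) could belong to near-identical copies, and those of KLRK1-AS1 (3.49 ± 0.36) to the gene on the other strand, since the use of strand in counting is not given in the sources used here. Libraries were pooled before amplification, and a transfer of reads between wells was not tested.

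Several S100 genes were far lower in KP4. S100A6 (chromosome 1, 153534599 to 153535991) read 41.1, 55.9 and 38.4 CPM in KP4, 1404, 1175 and 1266 in PANC1 and 1185, 1298 and 1188 in PK45H. The PANC1 and PK45H libraries lay close together, and every KP4 library was far below them (-4.78 ± 0.18, edgeR adjusted p 5.66e-07). S100A4, a marker of motile mesenchymal cells (chromosome 1, 153543621 to 153545806), read 14.9, 12.7 and 13.6 CPM in KP4, 165, 148 and 159 in PANC1 and 216, 196 and 186 in PK45H (-3.67 ± 0.14, edgeR adjusted p 5.66e-07). S100A16 (chromosome 1, 153606883 to 153613137) read 6.5, 2.96 and 3.97 CPM in KP4, 33, 23.7 and 31.7 in PANC1 and 174, 186 and 146 in PK45H (-3.95 ± 0.27, edgeR adjusted p 1.23e-05). For this gene PANC1 also lay well under PK45H, and KP4 lay under both. Of 16 tested S100 and annexin genes, 12 were lower in KP4 and 1, ANXA10, was higher (2.33), with a median of -0.86. The shares were 75% and 6.25%, beside 12.9% and 13% of all genes tested. Members below both lines were S100A4, S100A6, S100A10, S100A13, S100A16 and ANXA2.

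Position along the chromosome was examined after these values had been seen. From S100A10 to 500 kb past S100A13 on chromosome 1, 20 genes were tested. Genes before S100A10 were not examined. The 7 S100 genes among them were all lower in KP4 against the mean, and 5 of them were below both lines. Of all genes tested, 12.9% were lower and 3.51% below both lines. S100A11 (-0.39) and S100A2 (-0.80) were the others, and S100A2 was lower than in PK45H (-2.00) and not called against PANC1 (0.41). The 13 genes that followed the S100 genes were mixed: 3 were lower, 1 was higher and the rest did not pass. The shares over all genes tested were 12.9% and 13%. RAB13, a small GTPase, was the only one of the 13 below both lines (-0.99 ± 0.16). CHTOP, which begins within the S100A13 interval, was higher (0.65 ± 0.17, edgeR adjusted p 0.0175), and SNAPIN, ILF2 and INTS3 had differences of 0.41, 0.21 and -0.03 that did not pass.

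The start regions of S100A16, S100A6 and S100A4 are shown because these neighbours were low together, and that of HGF because it was the leading signalling gene. Each is the 250 bases before the RefSeq start, 5′ to 3′ on the gene's own strand, which is the minus strand for all 4 (GRCh38.p14: HGF chr7:81770048-81770297, S100A16 chr1:153613138-153613387, S100A6 chr1:153535992-153536241, S100A4 chr1:153545807-153546056). Capitals mark matches, on either strand, to CAGGTG, an E-box bound by ZEB1 and Snail factors, to TATAAA, the TATA box, or to TGANTCA, the AP-1 site.
HGF: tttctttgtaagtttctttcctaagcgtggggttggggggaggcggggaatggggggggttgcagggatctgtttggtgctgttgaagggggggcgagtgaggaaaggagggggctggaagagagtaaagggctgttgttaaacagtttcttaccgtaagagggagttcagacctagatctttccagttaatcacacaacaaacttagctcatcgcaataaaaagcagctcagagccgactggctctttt
S100A16: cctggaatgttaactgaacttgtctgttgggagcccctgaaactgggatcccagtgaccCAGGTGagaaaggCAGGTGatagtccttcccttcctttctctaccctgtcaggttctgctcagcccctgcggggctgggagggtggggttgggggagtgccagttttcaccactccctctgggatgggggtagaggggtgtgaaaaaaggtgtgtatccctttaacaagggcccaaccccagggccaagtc
S100A6: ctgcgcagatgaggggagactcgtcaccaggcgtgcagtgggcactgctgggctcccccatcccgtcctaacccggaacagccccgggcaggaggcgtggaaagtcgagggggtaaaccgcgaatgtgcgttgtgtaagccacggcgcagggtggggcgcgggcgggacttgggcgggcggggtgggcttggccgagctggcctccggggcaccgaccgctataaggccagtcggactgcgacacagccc
S100A4: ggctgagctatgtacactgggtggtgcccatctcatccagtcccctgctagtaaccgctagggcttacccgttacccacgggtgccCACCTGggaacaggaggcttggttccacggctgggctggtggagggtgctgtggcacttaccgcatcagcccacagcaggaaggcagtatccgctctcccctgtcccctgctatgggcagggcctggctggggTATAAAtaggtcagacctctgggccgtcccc
The S100A16 window held CAGGTG at 191 and 178 bases before the start, and the S100A4 window held its reverse complement at 164 bases and TATAAA at 31 bases. The windows of S100A6 and HGF held none of the 3 motifs. The windows differed in base composition, with 24 CpG pairs and 70% G or C in S100A6, 7 and 62.8% in S100A4, 6 and 50% in HGF and 1 and 57.2% in S100A16. Of 35116 windows of this length in the RefSeq table, 17.5% held CAGGTG, 10.7% TATAAA and 6.57% TGANTCA. Of the 15 leading genes on each side, 13 above and 12 below were in the table. CAGGTG was found in 4 of the 13 and 5 of the 12, TATAAA in 0 and 1, and TGANTCA in 0 and 0. A match is a run of letters only and describes no binding.

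Keratins were lower in KP4 while CDH1 and EPCAM were not called against the mean. KRT19 read 18.5, 19.1 and 20.7 CPM in KP4, 518, 420.5 and 470.5 in PANC1 and 96.9, 122 and 109 in PK45H. The 3 lines were fully separated, with KP4 lowest (-3.53 ± 0.15, edgeR adjusted p 8.72e-07). KRT8 (126, 110.1 and 125 CPM in KP4, -1.86 ± 0.16) and KRT18 (429, 332 and 426 CPM in KP4, -1.42 ± 0.13) were also below both lines, as was KRT80 (-1.98 ± 0.17). KRT7 was called lower against the mean (-1.64 ± 0.16) only through PK45H: it read 176, 122 and 186 CPM in KP4, 158, 161 and 199.6 in PANC1 and 1460, 1474 and 1514 in PK45H. Of 8 tested keratins 5 were lower (62.5%, beside 12.9% of all genes tested) and 0 higher, with a median of -1.53. In the wider list of 40 tested epithelial genes 16 were lower (40%) and 1 was higher (2.5%, beside 13% of all genes tested). The exception was CDH3, P-cadherin, which read 12, 11.2 and 17.3 CPM in KP4 and at most 2.91 in the other libraries (3.06 ± 0.39, edgeR adjusted p 0.000383). Members below both lines were the 3 keratins, CLDN4, a tight junction claudin (-2.11 ± 0.29), and PKP3, a desmosomal plakophilin (-1.92 ± 0.43). Of 26 tested cadherin genes, CDH3 and the protocadherins PCDH7 (2.80 ± 0.15) and PCDH10 (2.65 ± 0.28) stood above both lines.

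**Figure D2:**
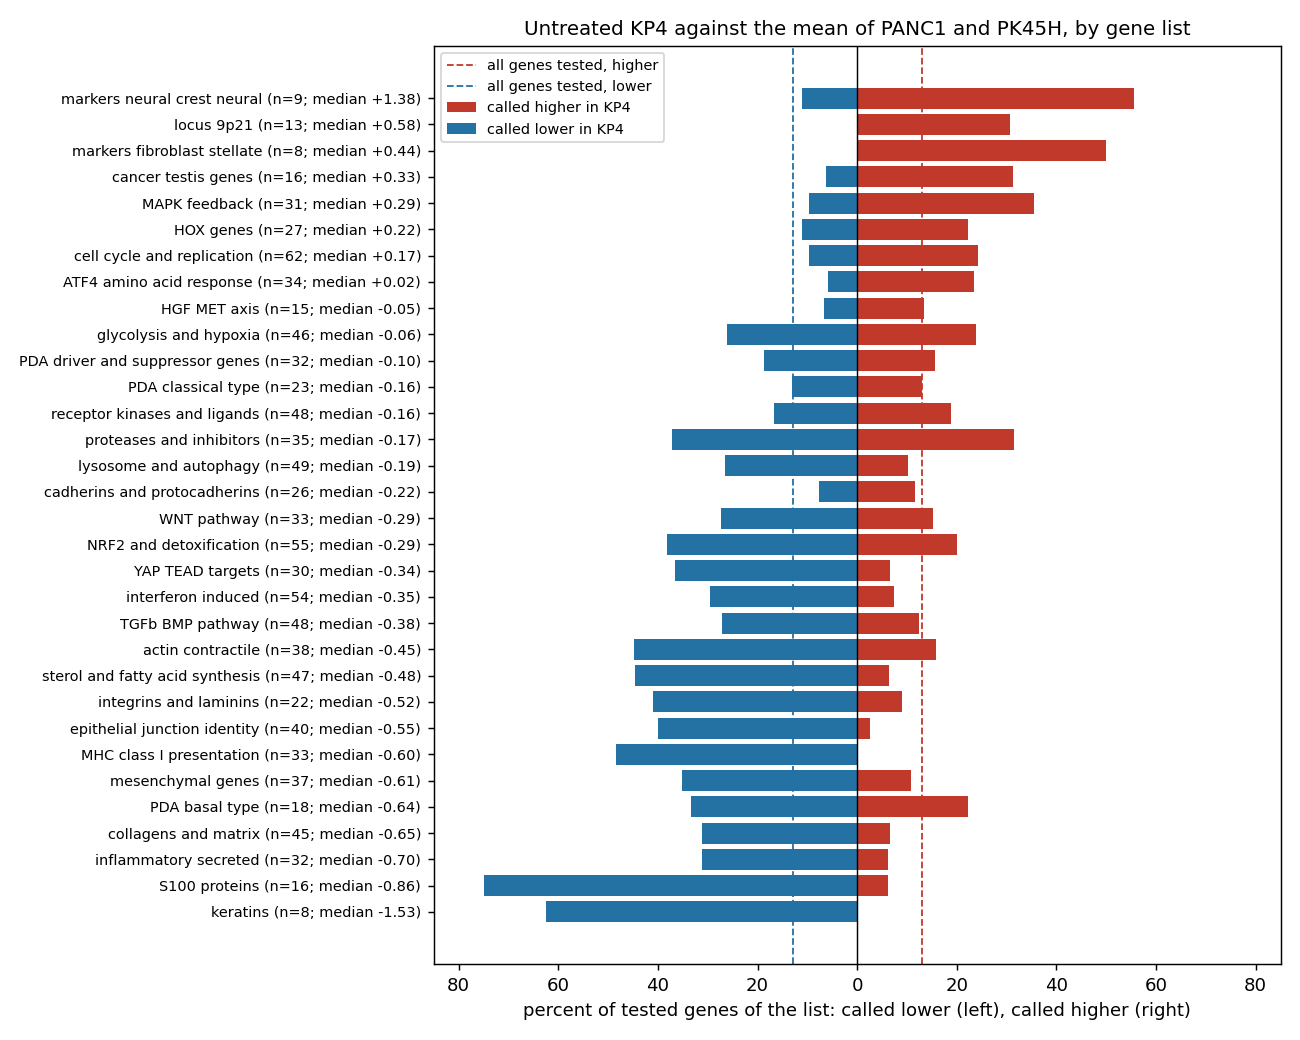
Shares of each gene list called lower (bars to the left) and higher (bars to the right) in untreated KP4 against the mean of PANC1 and PK45H, in percent of the tested members of lists with at least 8 of them. Dashed lines mark the shares over all 13523 genes tested, 12.9% and 13%, and labels give each list's number of tested genes and median log2 difference, from -1.53 for keratins to 1.38 for neural and neural crest markers.

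Genes of the list of mesenchymal genes did not rise together in KP4. Of 37 tested, 4 were higher and 13 lower (10.8% and 35.1%, beside 13% and 12.9% of all genes tested). Their median was -0.61, and 7 were below both lines and 0 above both, beside 3.51% and 3.17% of all genes tested. Of the separate fibroblast and stellate cell markers, 4 of 8 tested were higher and 0 lower. VIM, the mesenchymal filament vimentin, read 1737, 1819 and 1883 CPM in KP4, 3326, 2775 and 2842 in PANC1 and 215, 171 and 272 in PK45H. KP4 lay between the others, below PANC1 (-0.71) and far above PK45H (3.07). CD44, a hyaluronan receptor, read 128, 119 and 136 CPM in KP4, 669.9, 470 and 551 in PANC1 and 375, 378 and 404 in PK45H (-1.85 ± 0.14, edgeR adjusted p 1.84e-05). Also below both lines were S100A4, NT5E, the surface nucleotidase CD73 (-1.86 ± 0.17), TGFB1I1, a focal adhesion protein (-2.37 ± 0.17), LOXL2, a collagen cross-linking oxidase (-1.80 ± 0.17), and HEG1 (-1.26 ± 0.13). ACTA2, smooth muscle actin, was higher against the mean (0.95 ± 0.25, edgeR adjusted p 0.0198), and did not pass without KP4 library 2 (adjusted p 0.116) or library 3 (0.0621).

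In the matrix, 14 of 45 tested collagen and matrix genes were lower and 3 were higher, with a median of -0.65. The shares were 31.1% and 6.67%, beside 12.9% and 13% of all genes tested. FBLN1, the matrix glycoprotein fibulin-1, read 3.52, 2.63 and 4.38 CPM in KP4, 50.3, 46.1 and 45.5 in PANC1 and 41.9, 47.6 and 43.9 in PK45H (-3.70 ± 0.18, edgeR adjusted p 2.47e-06). COL5A2, a fibrillar collagen chain, went the other way, at 131, 136 and 150.3 CPM in KP4, 78, 69.6 and 87.1 in PANC1 and 15.2, 12.8 and 17.5 in PK45H (2.03 ± 0.13). Its partner chain COL5A1 was lower against the mean (-3.53 ± 0.42), at 1.23, 0.165 and 0.418 CPM in KP4, 1.85, 2.46 and 1.98 in PANC1 and 23.2, 27.9 and 25.1 in PK45H. Of 22 tested integrins and laminins, 9 were lower and 2 higher (40.9% and 9.09%), with a median of -0.52. LAMB1, a laminin chain of basement membranes, read 32.7, 19.1 and 20.7 CPM in KP4, 79.7, 96.2 and 86.5 in PANC1 and 160.2, 239.6 and 149 in PK45H (-2.37 ± 0.24). The integrin chains ITGA2 (-1.39), ITGA3 (-0.95), ITGA6 (-1.01) and ITGB5 (-1.24) were also below both lines.

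Proteases and their inhibitors were called in both directions. Of 35 tested, 11 were higher and 13 lower (31.4% and 37.1%, beside 13% and 12.9% of all genes tested). In this list, 6 stood above both lines and 4 below both, beside 3.17% and 3.51% of all genes tested. TIMP1, an inhibitor of metalloproteinases, read 388, 394 and 426 CPM in KP4, 111, 92.7 and 86 in PANC1 and 138, 133 and 147 in PK45H (1.81 ± 0.11). MMP2, gelatinase A, read 6.15, 6.75 and 6.26 CPM in KP4, 82.4, 61.1 and 85.4 in PANC1 and 25.6, 26.5 and 26.6 in PK45H (-2.79 ± 0.16). The coagulation inhibitors TFPI (1.45 ± 0.13) and TFPI2 (3.23 ± 0.25), the protease ADAM19 and the cathepsin CTSV (1.81 ± 0.20) were above both lines, while CTSD (-1.97 ± 0.16) and CTSH (-2.38 ± 0.31), lysosomal cathepsins, were below both. MMP10, stromelysin-2, had 21, 18 and 17 counts in KP4, 0, 2 and 0 in PANC1 and 0 in every PK45H library.

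Of 48 tested genes of the TGF-beta and BMP pathways, 6 were higher and 13 lower (12.5% and 27.1%, beside 13% and 12.9% of all genes tested). Among ligands, BMP7 was above both lines (1.83 ± 0.22), as were the extracellular regulators CHRD (2.23) and LTBP4 (1.40), and TGFB2 below both (-1.88 ± 0.29). Among receptors, TGFBR2, the receptor that binds TGF-beta, read 49.8, 74.7 and 59.5 CPM in KP4, 12.5, 16.6 and 16.1 in PANC1 and 42.5, 18.3 and 25 in PK45H (1.58 ± 0.24, edgeR adjusted p 0.00106). ENG, the co-receptor endoglin, was below both lines (-2.81 ± 0.49). Of well-known targets of the pathway, TGFBI (-2.45 ± 0.24) and PMEPA1 (-0.85 ± 0.13) were below both. ID1, a target of BMP signalling, was called against the mean (-2.10) through PANC1, reading 13.9, 20.6 and 15 CPM in KP4, 222, 254 and 263 in PANC1 and 28.5, 16.4 and 17.4 in PK45H.

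Of 33 tested WNT pathway genes 5 were higher and 9 lower (15.2% and 27.3%, beside 13% and 12.9% of all genes tested). WNT7B, a secreted WNT ligand, read 14.8, 13 and 12.1 CPM in KP4, 82, 79.5 and 85.4 in PANC1 and 42.7, 52.7 and 47.5 in PK45H (-2.22 ± 0.15, edgeR adjusted p 1.00e-05). The extracellular modulators DKK1 (-1.54 ± 0.17) and DKK3 (-2.69 ± 0.20) and the receptors FZD7 (-2.64) and ROR1 were also below both lines. WLS, which carries WNT proteins to the cell surface, was above both (2.22 ± 0.20). Of 30 tested targets of YAP and TEAD, 11 were lower and 2 higher (36.7% and 6.67%), with a median of -0.34. NT5E, CRIM1 (-1.10), MYOF (-1.14), TGFB2 and GADD45B (-1.10) were below both lines. The best-known targets CCN1 (-0.89) and ANKRD1 (-1.62) were lower against the mean only.

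Of actin-binding and contractile genes, 17 of 38 tested were lower and 6 higher, 9 of them below both lines and 1, TPM4, above both (1.19 ± 0.11). The shares lower and higher were 44.7% and 15.8%, beside 12.9% and 13% of all genes tested. Of all genes tested, 3.51% were below both lines and 3.17% above both. ACTN4, an actin cross-linker, read 682, 604 and 648 CPM in KP4, 3587, 4718 and 2928 in PANC1 and 1230, 1103 and 1105 in PK45H (-1.67 ± 0.15). PDLIM1, a scaffold of stress fibres, read 11.1, 12.2 and 13.4 CPM in KP4, 73.7, 77.9 and 78.9 in PANC1 and 74, 95.5 and 71.3 in PK45H (-2.67 ± 0.16, edgeR adjusted p 5.58e-06). The KP4 libraries did not overlap the others for either gene. The filamins FLNA (-1.74 ± 0.20) and FLNC (-3.59 ± 0.44), MYH9, VCL, TAGLN2 and the intermediate filament gene NES (-2.88 ± 0.23) were also below both. TPM2 was higher against the mean (1.52) through PK45H alone, with 681, 657 and 654 CPM in KP4, 902, 747 and 779.5 in PANC1 and 78, 55.4 and 69.3 in PK45H.

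Of 33 tested genes of MHC class I presentation 16 were lower (48.5%, beside 12.9% of all genes tested) and 0 higher. Their median was -0.60 against the mean, 0.19 against PANC1 and -1.37 against PK45H. B2M, the invariant chain of class I molecules, read 51.2, 42.6 and 48.4 CPM in KP4, 134, 122 and 133 in PANC1 and 248, 328 and 277 in PK45H. KP4 was lowest in all 3 libraries (-2.00 ± 0.14, edgeR adjusted p 1.47e-05). TAP1, a peptide transporter (-1.30 ± 0.19), and MICB, a stress ligand of natural killer cells (-1.69 ± 0.17), were also below both lines. Of 54 tested interferon-induced genes 16 were lower and 4 higher (29.6% and 7.41%, beside 12.9% and 13% of all genes tested). Their median was -0.35 against the mean, -0.09 against PANC1 and -0.34 against PK45H. IFITM2, LGALS3BP and IFI30 were below both lines. LGALS3BP, a secreted glycoprotein, read 11.4, 14.6 and 16.7 CPM in KP4, 32.1, 33.8 and 29.7 in PANC1 and 110.1, 114 and 118 in PK45H (-2.07 ± 0.15). Of 32 tested inflammatory and secreted factors 10 were lower and 2 higher (31.2% and 6.25%). The median of this list was -0.70 against the mean, -0.04 against PANC1 and -0.99 against PK45H. EDN1, endothelin (-1.88 ± 0.17), TNFAIP2 (-2.46 ± 0.22) and NFKBIA (-0.93) were below both lines. PTHLH, the parathyroid hormone-like hormone, was above both (1.97 ± 0.35).

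Metabolic lists split. In glycolysis and hypoxia 11 of 46 tested genes were higher and 12 lower, with a median of -0.06. The shares were 23.9% and 26.1%, beside 13% and 12.9% of all genes tested. GAPDH read 3922, 4002 and 2945 CPM in KP4, 1575, 1168 and 1328 in PANC1 and 1817, 1666 and 1652 in PK45H (1.27 ± 0.13). PFKP, the platelet form of phosphofructokinase, read 63.3, 61.9 and 72.7 CPM in KP4, 241, 179 and 213 in PANC1 and 236, 242 and 269 in PK45H (-1.78 ± 0.14). STC1, the secreted stanniocalcin, was above both lines (2.84 ± 0.21) and its relative STC2 below both (-1.37 ± 0.22), and the hypoxia factor EPAS1 was below both (-3.02 ± 0.25). LDHB was higher against the mean (2.56), with 256, 234 and 258 CPM in KP4, 291, 206 and 233 in PANC1 and 6.92, 5.03 and 10.5 in PK45H: KP4 and PANC1 overlapped and PK45H stood alone.

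In sterol and fatty acid synthesis 21 of 47 tested genes were lower and 3 higher. That is 44.7% and 6.38%, beside 12.9% and 13% of all genes tested. The median was -0.48 against the mean, -0.64 against PANC1 and -0.13 against PK45H. PPARG, a nuclear receptor of lipid storage, read 7.74, 3.95 and 6.68 CPM in KP4, 76.4, 43.6 and 104 in PANC1 and 69.9, 52.3 and 68.6 in PK45H (-3.48 ± 0.34, edgeR adjusted p 7.76e-05). INSIG1 (-1.75 ± 0.21), PMVK (-1.14 ± 0.21) and FDFT1 (-0.67 ± 0.13) were also below both lines. INSIG1 encodes a regulator and the other two enzymes of cholesterol synthesis. Of 34 tested ATF4 and amino acid genes 8 were higher and 2 lower (23.5% and 5.88%). ATF4 itself read 274, 285 and 269 CPM in KP4, 164, 150.2 and 159.5 in PANC1 and 178, 179.7 and 162 in PK45H (0.75 ± 0.10), and the serine and asparagine enzymes PHGDH (1.03 ± 0.15), PSAT1 (0.79 ± 0.13) and ASNS (1.21 ± 0.14) stood above both lines with it.

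Of 55 tested NRF2 and detoxification genes 11 were higher and 21 lower (20% and 38.2%, beside 13% and 12.9% of all genes tested). Thioredoxin TXN read 1226, 1541 and 1324 CPM in KP4, 509.9, 454 and 463 in PANC1 and 795, 841 and 764 in PK45H (1.16 ± 0.10), and its reductase TXNRD1 was above both lines with it (1.16 ± 0.12). MGST2 (-3.58 ± 0.35) and ALDH1A3 (-1.97 ± 0.24) were below both lines, the latter opposite in direction to ALDH1A1. Ferritin chains also differed in direction, FTH1 above both (0.53 ± 0.11) and FTL below both (-0.99 ± 0.15). The metallothioneins MT1L (17, 8 and 3 counts in KP4, 900, 641 and 695 in PANC1 and 252, 339 and 221 in PK45H) and MT1A (-3.56 ± 0.36) were among the genes that led below both, and reads of these near-copies could be split between them. Of 49 tested lysosome and autophagy genes 13 were lower and 5 higher (26.5% and 10.2%). In this list 6 were below both lines, beside 3.51% of all genes tested, with NEU1 (-1.52 ± 0.15) and ATP6AP1 (-1.41 ± 0.16) as examples.

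Of 62 tested cell cycle genes 15 were higher and 6 lower (24.2% and 9.68%, beside 13% and 12.9% of all genes tested). The median was 0.17 (all genes -0.01), and 41 genes did not pass. Under the stricter rule 3 of the 62 stood above both lines and 2 below both, beside 3.17% and 3.51% of all genes tested. FOXM1, a transcription factor of the G2 phase, read 33.6, 32.4 and 31.9 CPM in KP4, 13.6, 16.8 and 14.7 in PANC1 and 16.8, 17.1 and 14.9 in PK45H (1.08 ± 0.12). CDKN1A, the cell cycle inhibitor p21, read 49.9, 58.1 and 61 CPM in KP4, 30.7, 22.6 and 26.3 in PANC1 and 29.8, 35.7 and 33.2 in PK45H (0.94 ± 0.13). The 3 KP4 libraries were the highest for CDKN1A and did not overlap the 6 others. Among 32 tested PDA driver and suppressor genes 5 were higher and 6 lower (15.6% and 18.8%), BRCA1 (1.08 ± 0.11) and TGFBR2 standing above both lines. AKT2 was lower against the mean (-1.58) through PANC1, which read 617, 736 and 558 CPM against 87.9, 66.3 and 78.9 in KP4 and 95.8, 65.6 and 99.3 in PK45H.

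Of 23 tested genes of the published classical type of PDA 3 were higher and 3 lower (13% each, the share over all genes tested being 13% and 12.9%), and 0 stood outside both lines. AGR2, a secretory protein of that type, read 4.22, 4.93 and 2.71 CPM in KP4, 51, 46.8 and 48.4 in PANC1 and 4.62, 3.52 and 4.74 in PK45H, so its call (-1.84) came from PANC1. Of 18 tested genes of the basal type 4 were higher and 6 lower (22.2% and 33.3%), among them CTSV, DSC3 (31, 31 and 39 counts in KP4, 3, 3 and 1 in PANC1 and 6, 2 and 4 in PK45H) and SCEL (2.90) above both lines and KRT80 and ITGA3 below both. Of 27 tested HOX genes, which mark position along the body axis, 6 were higher and 3 lower (22.2% and 11.1%), HOXA2 (1.77 ± 0.25) above both lines and HOXC11 (-2.67 ± 0.31) below both. Of 16 tested cancer-testis genes 5 were higher and 1 lower (31.2% and 6.25%). MAGED1 (1.24) was the only one above both lines besides MAGEA6.

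Other genes that led below both lines were RASD2, a small GTPase (-4.06 ± 0.46), SNRPN, from an imprinted locus on chromosome 15 (-4.13 ± 0.19), ANKS6 (-3.42 ± 0.26), SMIM10 (-3.51 ± 0.30), RTL8B (-3.12 ± 0.24), HTATIP2 (-2.98 ± 0.20) and ARHGAP45 (-2.98 ± 0.32). SNRPN read 4.75, 4.28 and 3.13 CPM in KP4, 103, 93.3 and 108 in PANC1 and 49.9, 57 and 47.4 in PK45H. SMIM10 and RTL8B lie near each other on chromosome X, at 134990991 and 135020513, and both were low.

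By chromosome, 13185 of the 13523 tested genes were placed with RefSeq. The median difference ran from -0.30 on chromosome 13 to 0.21 on chromosomes 14, 17 and 21. Chromosome X had 25.3% of its 431 tested genes higher, chromosome 17 had 22.6% of 800 and chromosome 21 had 23.8% of 130, where 13% of all genes tested were higher. Chromosome 20 had 23.4% of 354 lower and 5.65% higher, chromosome 8 had 23.2% of 449 lower and 13.6% higher, and chromosome 10 had 18.3% of 525 lower and 5.52% higher, where 12.9% of all genes tested were lower. These medians shifted differently against each line: chromosome 14 had 0.37 against PANC1 and 0.01 against PK45H, and chromosome 13 had -0.08 and -0.49. On chromosome 9, at 0.31 against PANC1 and 0.01 against PK45H, the 13 tested genes of band 9p21 had a median of 0.58. Against PANC1 alone their median was 0.81, and against PK45H alone 0.26. Of the 13, 4 were higher (30.8%, beside 13% of all genes tested) and 0 lower. CAAP1 (0.28) and PLAA (-0.12), both higher against the mean, were not called against PK45H alone. ELAVL2, a neuronal RNA-binding protein of that band, was above both lines at 14, 26 and 12 counts in KP4, 0, 2 and 0 in PANC1 and 2, 4 and 3 in PK45H. Copy number was not measured in these data.

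**Figure D3:**
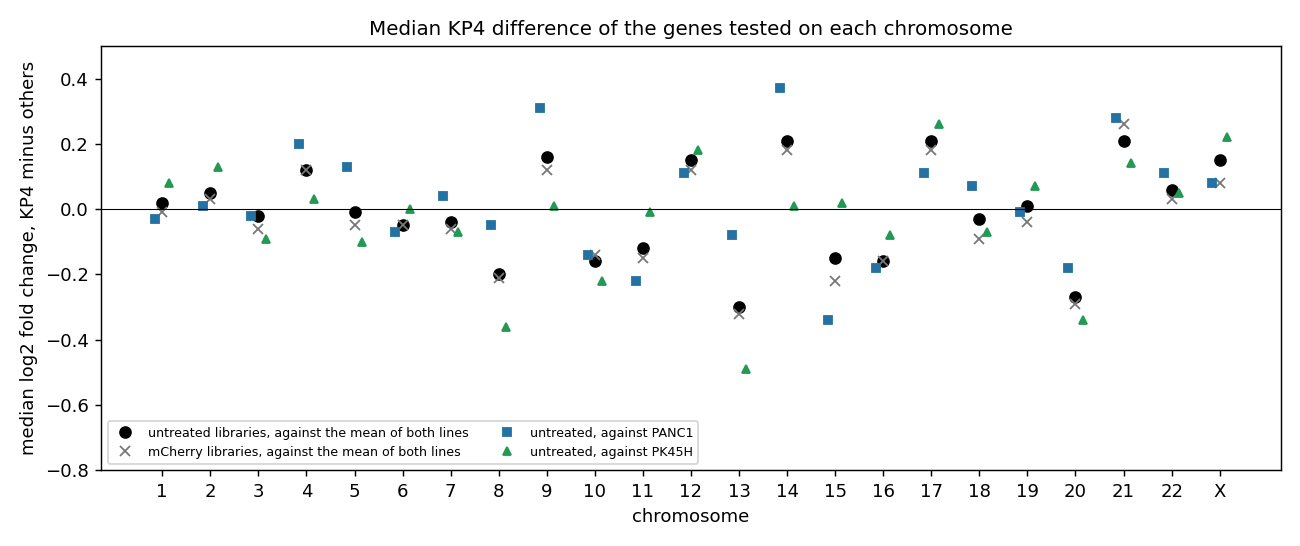
Median log2 difference of the tested genes of each chromosome, KP4 minus the others, on the vertical axis (12784 of the genes for the mCherry libraries). Black circles show the untreated libraries against the mean of both lines, crosses the same contrast in the mCherry libraries, squares untreated KP4 against PANC1 and triangles against PK45H; chromosomes 13 and 20 lie lowest at -0.30 and -0.27.

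The same contrast in cells given the mCherry control virus used 9 libraries that the untreated comparison had not used. There 3218 of 12935 tested genes (24.9%) were called, 1586 higher and 1632 lower. Of 3412 untreated calls that were also tested with mCherry, 2204 (64.6%) were called in the same direction and 3327 (97.5%) had the same sign. The 1 gene called in the opposite direction was VSIG10 (-0.68 untreated and 2.27 with mCherry), named after its values were seen. Read from the other side, 2204 of 3194 mCherry calls (69%) were untreated calls. For KP4 above or below both lines, 503 of 882 untreated calls (57%) and of 753 mCherry calls (66.8%) were shared, where 5.83% of all genes were called with mCherry. Of those 882 genes, 880 had the same sign, the exceptions being FTH1 (-0.12 with mCherry) and ERO1A (-2.66), which were not called there. A change of the difference itself between untreated and mCherry libraries passed the threshold for 2 of 13853 genes (0.0144%), KRT19 and WNT7B. HGF was at 4.68, SOX2 at 3.64, DUSP6 at 1.64, S100A6 at -4.32 and S100A4 at -3.20 with mCherry, all in the direction of the untreated cells.

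**Figure D4:**
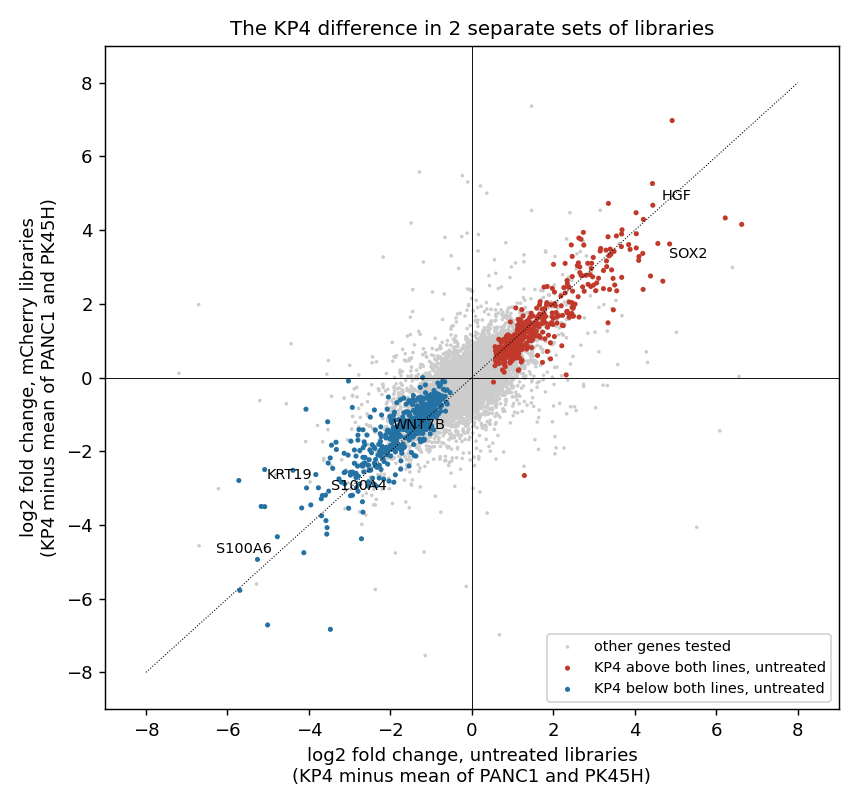
Log2 difference of KP4 from the mean of PANC1 and PK45H in the untreated libraries (horizontal axis) and in the mCherry libraries (vertical axis), 1 point for each of 12784 genes tested in both; the dotted line marks equal values. Red and blue points are genes with untreated KP4 above or below both lines, and 880 of the 882 of these have the same sign on both axes.

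Across all 5 conditions of the 3 lines, scaled together over the 51 libraries, the leading genes mostly kept their side. The 15 genes above both lines did not overlap the 6 other libraries in 15 of 15 cases with mCherry and with mCherry plus M2rtTA, and in 14 with OVOL2 and with OVOL2 plus M2rtTA, where MGARP overlapped. Among all genes tested the share was 10.6%, 10.5%, 9.48% and 8.54% in these 4 conditions. The leading genes of both sides were picked for wide gaps in the untreated libraries, so shares over all genes are no like baseline. The 15 genes below both lines did not overlap in 15, 14, 14 and 12 cases, against 7.94%, 9.95%, 8.03% and 7.57% of all genes; ARHGAP45, then SMIM10, and then PPARG, MT1A and RTL8B were the exceptions. HGF in KP4 averaged 82.8 ± 13.2 CPM untreated, 74.6 ± 9.95 with mCherry and 56.4 ± 3.02 with OVOL2 plus M2rtTA (SD, n = 3). ALDH1A1 in KP4 averaged 60.2 ± 1.34 CPM untreated, 34.1 ± 2.34 with mCherry and 12.6 ± 1.72 with OVOL2 plus M2rtTA. SPP1 in KP4 averaged 69.5 ± 6.43, 62.7 ± 5.49 and 22.9 ± 6.47 CPM in the same order. With mCherry plus M2rtTA and with OVOL2 alone, HGF in KP4 averaged 95.77 ± 6.39 and 85.42 ± 2.84 CPM. In these conditions ALDH1A1 averaged 32.96 ± 0.926 and 34.85 ± 1.7 CPM, and SPP1 54.58 ± 5.78 and 44.25 ± 4.85. S100A6 in KP4 stayed between 46.2 and 56.6 CPM on average in all 5 conditions, whereas PANC1 averaged 1271 untreated and 628 with OVOL2 plus M2rtTA.

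**Figure D5:**
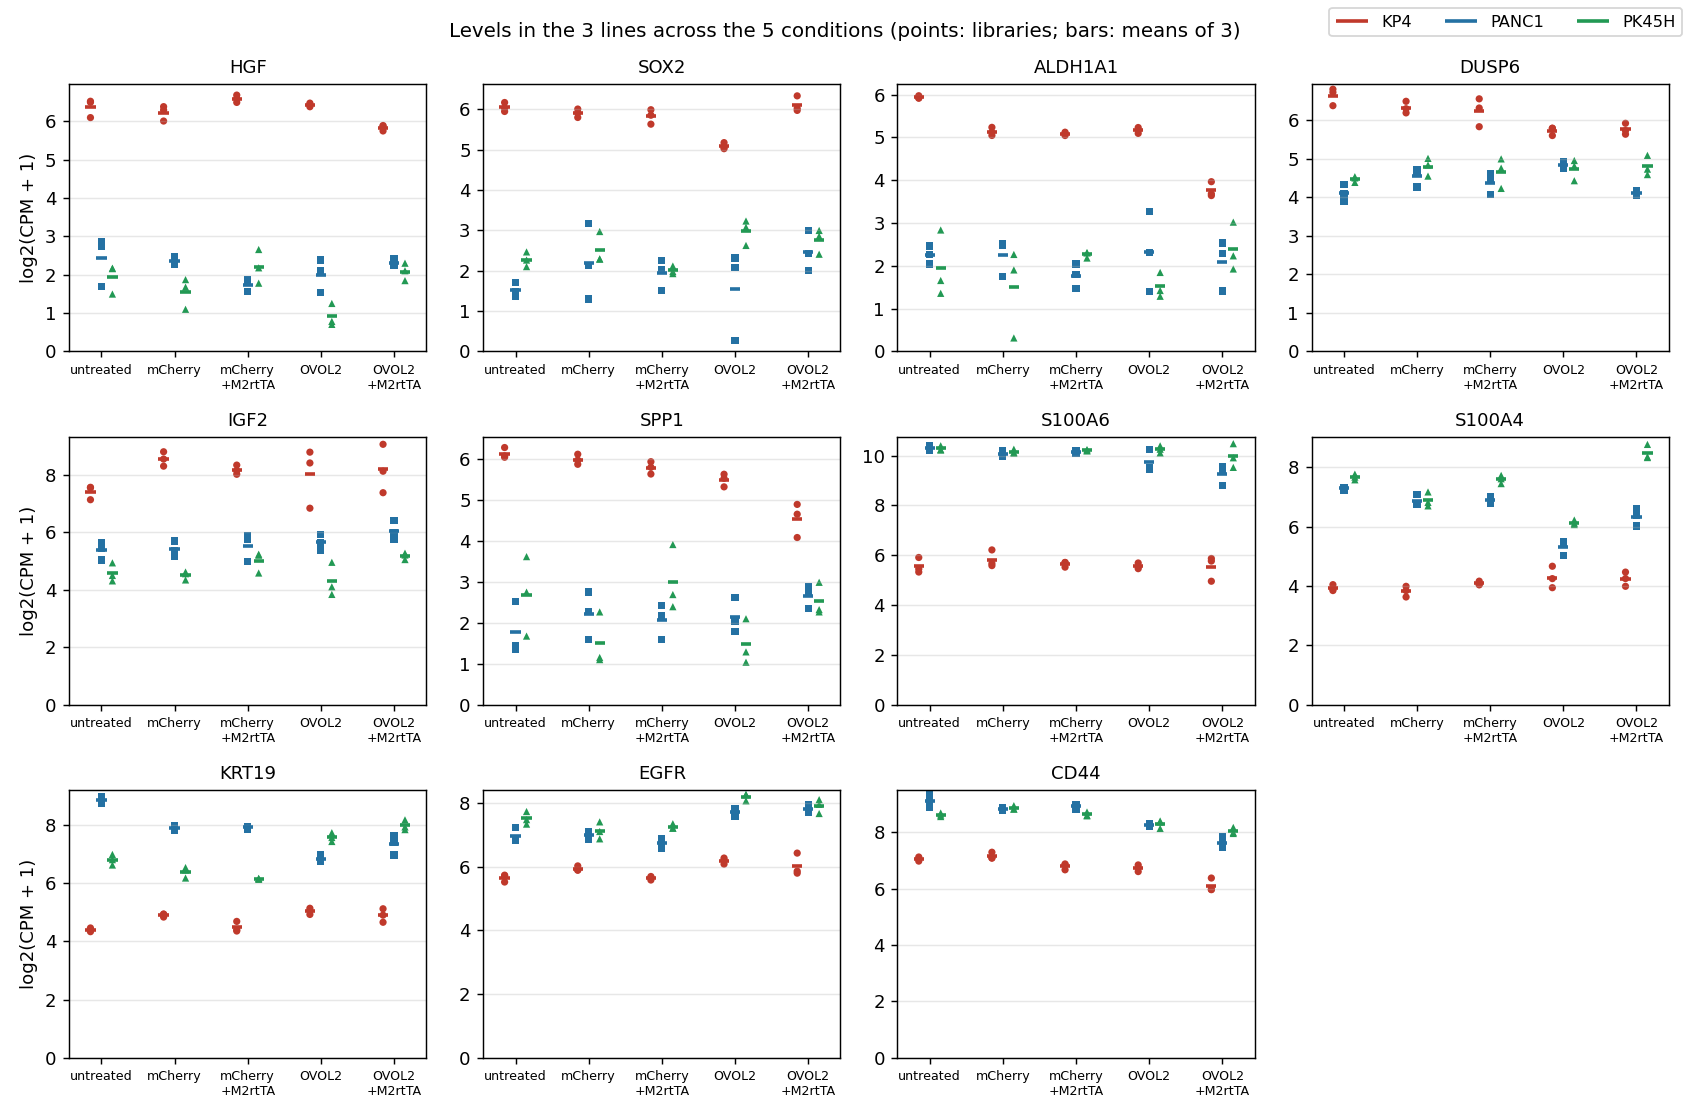
Levels of 11 genes in the 3 lines across the 5 conditions, as log2(CPM + 1) with 1 point per library and a bar at the mean of 3 (KP4 red circles, PANC1 blue squares, PK45H green triangles). KP4 is the highest line in all conditions for HGF, SOX2, ALDH1A1, DUSP6, IGF2 and SPP1 and the lowest for S100A6, S100A4, KRT19, EGFR and CD44.

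The lines outside the comparison placed the leading genes in a wider frame, scaled over the 15 untreated libraries. The leading genes of both sides were picked on these same KP4 libraries. Shares over all tested genes are therefore no like baseline, and nothing is read from the counts. Of the 15 genes above both lines, 14 were also above every library of HPAFII and of PATU8988S, where 23.8% and 25% of all tested genes were. The exception with both was CKMT1B. HGF averaged 6.86 ± 3.62 CPM in HPAFII and 2.36 ± 0.723 in PATU8988S (SD, n = 3) against 79.2 in KP4, and SOX2 6.29 ± 2.85 and 16 ± 2.89 against 62.6. Of the 15 genes below both lines, 11 were also below every HPAFII library and 6 below every PATU8988S library (15% and 22.7% of all tested genes). S100A6 averaged 1563 ± 732 and 2324 ± 109 CPM in HPAFII and PATU8988S, so KP4, at 44.8, was the lowest of the 5 lines. FBLN1, at 6.01 ± 2.67 and 4.22 ± 1.09 CPM, overlapped with KP4 in both HPAFII and PATU8988S. RASD2 and L1CAM also overlapped with both of these lines.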

How the data were processed

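Gene counts were measured by PLATE-seq; the authors deposited 1 table of raw counts, whole numbers per gene symbol, for 51 libraries. The submitters' processing notes name kallisto 0.44.0 and GRCh38; the annotation, the handling of strand and of molecular identifiers are not given in the sources used here. All 51 columns were matched to samples by description, and groups follow the title.

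The 9 untreated libraries were fitted with edgeR 4.0.16 (R 4.3.3): filterByExpr by line, TMM scaling, quasi-likelihood test (two-sided), Benjamini-Hochberg adjustment over all genes tested, threshold 0.05. KP4 was set against the mean of PANC1 and PK45H and against each line. On simulated counts with 100 genes changed per size, the test against the mean recovered 20.4% of genes changed by 1 on the log2 scale. It recovered 86.5% of those changed by 2, so a difference that did not pass does not show equality. Far fewer genes were changed there than the 3512 called in the data. The adjusted threshold depends on that share, so these figures are not the power of the comparison itself. Total counts were 3367089 or more per library. Intervals were not computed for shares of counts.

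Named genes were OVOL2, ZEB1, CDH1, EPCAM, ESRP1, VIM, HGF and MET; the 15 above and 15 below both lines with the largest smaller pairwise difference, non-overlapping libraries, at least 10 CPM on the higher side and no library over 3 times its group's median there; and the 3 called members of each of 36 lists with the smallest p, with other list members, and the neighbours of S100A13, named after their values were seen; some genes that these rules name are not reported here. Members and lists were chosen with earlier results of these data known. DESeq2 1.42.0 and other scalings, filters, fits and left-out libraries were alternatives. Coordinates and promoters are RefSeq's (GRCh38.p14).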

Additional observations from a re-analysis of the deposited data

Results flagged for a closer look

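The difference of KP4 from the mean of PANC1 and PK45H was itself compared between the untreated and the mCherry libraries. Of 13853 genes tested with edgeR, 2 passed the threshold (0.0144%), and 1011 had an unadjusted p under 0.05. For KRT19 the log2 difference was -3.53 untreated and -2.32 with mCherry, a change of -1.22 (adjusted p 0.012). KRT19 averaged 20.1 ± 0.932 CPM in untreated and 28.9 ± 1.18 in mCherry KP4, 466 ± 38.1 and 236 ± 13.8 in PANC1, and 111 ± 14.1 and 83.2 ± 10.7 in PK45H (SD, n = 3). For WNT7B the difference was -2.22 untreated and -1.02 with mCherry, a change of -1.21 (edgeR adjusted p 0.0152). WNT7B averaged 13.8 ± 1.5 and 20.6 ± 0.489 CPM in KP4, 81.7 ± 3.65 and 56.2 ± 6.29 in PANC1, and 48.6 ± 5.79 and 29.1 ± 4.39 in PK45H. For both genes KP4 was the lowest line in both conditions, and its average was higher with mCherry than without, while those of PANC1 and PK45H were lower.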

How the results depend on the processing

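The count of genes for which KP4 stood outside both lines, 903, was the result that moved most: leaving out 1 library gave 569 to 762, with 569 without KP4 library 1, 572 without KP4 library 2 and 598 without KP4 library 3, each fewer by over 1.5 times. Of the 903, 545, 541 and 564 were still called without these libraries. Fewer libraries were tested there. The count against the mean, 3512, ran from 2499 to 3381 without 1 library and from 3021 to 4045 under the other settings; those against PANC1 (2734 to 3340 and 3002 to 3876), PK45H (2819 to 3748 and 3118 to 4109) and with mCherry (2152 to 3218 and 2628 to 3356) also stayed within 1.5 times. DESeq2 called 3706 and 1098, and the fit of all 51 libraries 4045 and 1144. Of 2197 values of 116 named genes under these settings, 2179 kept their direction and side of the threshold in the contrast against the mean. Whether each named gene still stood above or below both lines was not followed in these settings. ZEB1, which was not called, changed sign to 0.14 without KP4 library 1 and 0.06 without PK45H library 2 (lowest -0.35, without KP4 library 2), and ESRP1 to 0.47 without PANC1 library 2 (lowest -0.56, without PANC1 library 3). The 15 that lost the threshold were MET in 10 settings, PLAA and ACTA2 in 2 each and VSIG2 in 1. Replicate numbers recur across the lines. Deviations of libraries with the same number had correlations of -0.085 to 0.104, and those with different numbers -0.189 to 0.167. Between KP4 and PANC1 the same-number pairs were at 0.1, 0.047 and 0.09 and the others at -0.08 to -0.014. Same-number pairs with PK45H ran from -0.085 to 0.104. With replicate number as a block the counts were 3021 against the mean, 655 outside both lines and 2787 with mCherry. They were 3002 against PANC1 and 3118 against PK45H. Of the 903 genes outside both lines, 641 were still called with the block. Against the mean, the block changed the call of MET (0.47, edgeR adjusted p 0.0651) and of no other named gene.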
